A study of Mus musculus with 12 samples.

Results

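The nuclear genes of the mitochondrial ribosomal proteins were examined in monocytes of the spleen and of the peripheral blood, before and after liver resection. The genes were taken by name: every entry of the count tables whose symbol starts with Mrpl or Mrps followed by a digit, with at least 10 counts in 3 or more libraries. This gave 78 genes of 52553 features in the tables, 49 with large subunit names (Mrpl) and 29 with small subunit names (Mrps). All 78 passed the filter on low counts and were among the 20135 features tested. The lowest count of any of them in any library was 92.

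The mitochondrial ribosome, or mitoribosome, translates within the organelle the small set of messages that mitochondrial DNA encodes, and these proteins enter the complexes of oxidative phosphorylation. Its own proteins are all encoded in the nucleus, made in the cytosol and imported, and they assemble with mitochondrial ribosomal RNA into a small subunit that decodes the message and a large subunit that forms the peptide bond. Many of them are relatives of bacterial ribosomal proteins, and others occur only in mitochondria. Monocytes and macrophages are cells in which the balance of oxidative phosphorylation and glycolysis differs between states of activation. The names are not a strict guide to position: Mrps30 and Mrps18a sit in the large subunit, and Mrps36 is now counted as a subunit of the oxoglutarate dehydrogenase complex.

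The cells came from male C57BL/6 mice and were collected by magnetic sorting for CD115, the receptor for macrophage colony-stimulating factor, which is encoded by Csf1r. In the intact groups both spleen and liver were left in place. In the resected groups 70% of the liver mass had been removed 24 h earlier, and the spleen was present. The labels call the control animals intact and do not say whether they had a sham operation. Anaesthesia, surgery and the analgesic given around it therefore cannot be told apart from the loss of liver mass. Each of the 4 groups (spleen intact, spleen resected, blood intact, blood resected) had 3 libraries, each pooled from the monocytes of 5 mice, so that differences between single animals were averaged within a library. The age of the mice was not given in the sources used here. Nothing in the labels ties the libraries of different groups together, and p-values measure the spread between these pools.

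The libraries held 36990033 to 46401368 estimated counts. The mitochondrial ribosomal protein genes took 0.1001% to 0.2198% of the counts assigned to genes, with the extremes in 2 libraries of the same group, blood intact 1 and blood intact 3. Csf1r was detected in every library, at 209 to 1192 CPM (counts relative to the scaled library size, per 1000000 counts). Markers of other cells were present too. Haemoglobin genes took 13.2% to 34.2% of gene counts in blood and 0.0814% to 3.47% in spleen. The 12 neutrophil markers summed to 127 to 396 CPM in blood intact and to 4363 to 23610.2 CPM in blood resected, and the 9 B-cell markers to 1309 to 5876 CPM in spleen and 579 to 2675 CPM in blood. In such bulk samples a lower proportion of a cell type and a lower RNA content per cell cannot be told apart.

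One library stood apart from the other members of its group. In blood intact 3 the 49 large subunit genes summed to 1315 CPM, against 757 and 802 CPM in blood intact 1 and 2. The 29 small subunit genes summed to 708 CPM there, against 442 and 475 CPM. It was the library with the highest CPM for 46 of the 78 genes, and blood intact 1 was the lowest library for 29 of them. Blood intact 3 also had the lowest Csf1r (209 CPM), the lowest haemoglobin share in blood (13.2%), the highest sum of the 11 T- and NK-cell markers (2421 CPM, against 962 and 1040.0 CPM in blood intact 1 and 2) and the highest sum of the 14 proliferation markers of all 12 libraries (2763 CPM, against 309 and 276 CPM). The main values that rest on the blood intact group are therefore also given without it.

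**Figure D1:**
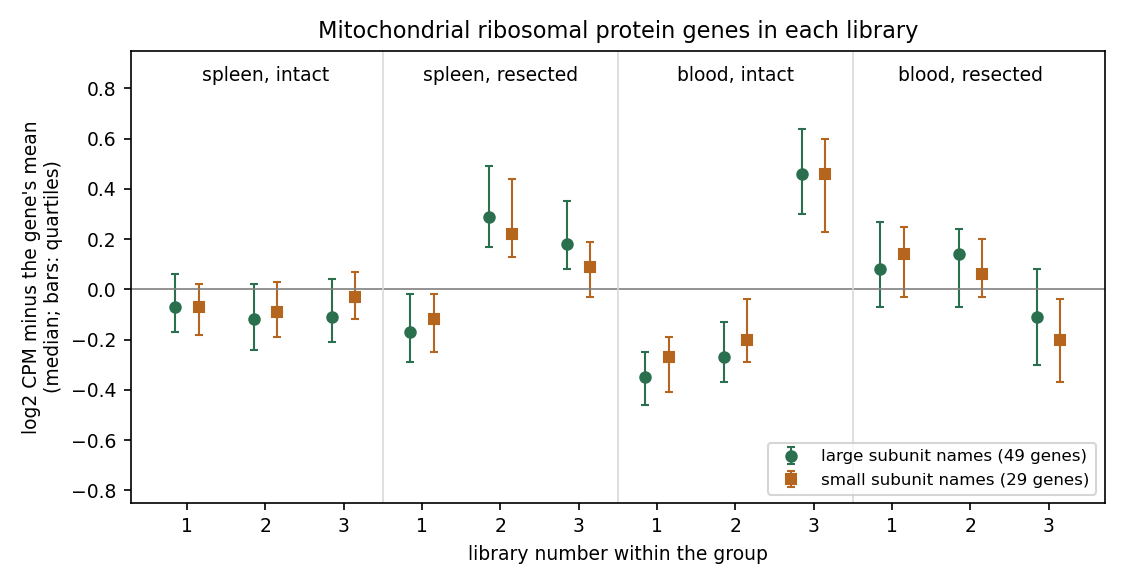
Each point is the median, over the genes of one subunit, of a library's log2 CPM minus the gene's mean over the 12 libraries, and bars span the quartiles over genes. Within blood intact, libraries 1 and 2 lie at -0.35 and -0.27 for the large subunit names and library 3 at 0.46, so that this group covers the range of the other 3 groups.

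The plot of the median deviation by library shows both subunits shifting together. In spleen intact the medians of the large subunit genes were -0.07, -0.12 and -0.11, and those of the small subunit genes were -0.07, -0.09 and -0.03. In spleen resected they were -0.17, 0.29 and 0.18 for the large and -0.12, 0.22 and 0.09 for the small subunit. In blood resected they were 0.08, 0.14 and -0.11 for the large and 0.14, 0.06 and -0.20 for the small subunit. Spleen intact was the most uniform group, and each of the other groups held at least 1 library on either side of 0. The 3 libraries with the highest medians of the large subunit genes (blood intact 3, spleen resected 2 and spleen resected 3) were also those with the highest sums of proliferation markers, at 2763, 1928 and 1370.3 CPM. The other 9 libraries had 276 to 745 CPM. The part of proliferating cells in the level of these genes was not tested.

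The ratio of the summed CPM of large to small subunit names varied little, from 1.69 to 1.95 over the 12 libraries. It was 1.78, 1.74 and 1.75 in spleen intact and 1.76, 1.83 and 1.95 in spleen resected. It was 1.71, 1.69 and 1.86 in blood intact and 1.76, 1.86 and 1.93 in blood resected. The ratios of intact and resected libraries overlapped in both sources.

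Divided by transcript length, the levels of single genes spread far more than the levels of the subunits did. Among the large subunit names Mrpl33, a relative of the bacterial protein L33, had the highest level with 56.1 CPM per kilobase, as the mean over the 4 groups. Mrpl47 had the lowest with 1.49 CPM per kilobase. Among the small subunit names Mrps21 had the highest level, 46 CPM per kilobase, and Mrps35 the lowest, 2.73 CPM per kilobase. Transcripts of the 78 genes were 418 to 7300 bases long, with a median of 1253 bases.

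The first comparison asked how the circulating monocytes differed 24 h after resection from those of intact animals. Of the 49 large subunit genes 4 rose and 0 fell, and of the 29 small subunit genes 0 rose and 1 fell (edgeR quasi-likelihood test, Benjamini-Hochberg adjusted p under 0.05 over all features). Among all features 10.8% were called higher and 10.3% lower, both larger shares than among the mitochondrial ribosomal protein genes. The median log2 fold change was 0.02 for the large and -0.08 for the small subunit names, beside -0.10 for all features tested. The intact and resected libraries did not overlap for 6 of the 78 genes in the higher and 3 in the lower direction, against 19.4% and 19% of all features. Without adjustment 8 genes with p under 0.05 were higher and 2 lower, and DESeq2 called 9 higher and 2 lower. For counts by unadjusted p or by DESeq2, here and below, the share of all features is not given. Such counts are therefore not set against a background.

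Mrpl33 had 21.7, 20.5 and 23 CPM in blood intact and 38.4, 41.6 and 42.4 CPM in blood resected. All 3 resected libraries were far above the intact libraries, blood intact 3 included. Its log2 fold change was 0.91 ± 0.16 (SE, edgeR adjusted p = 0.00471). It stayed between 0.90 and 0.97 with each of the 12 libraries left out in turn, and the call was kept each time. In GENCODE, Mrpl33 shares 261 exonic bases, 3.56% of its own, with Gm43809 on the same strand. The part of reads from these shared bases was not tested.

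Mrpl54, a protein found only in mitochondrial ribosomes, had 12, 12.8 and 17.3 CPM in blood intact and 25.4, 23.1 and 20.2 CPM in blood resected. The groups did not overlap, with blood intact 3 and blood resected 3 nearest to each other. The log2 fold change was 0.71 ± 0.16 (SE, edgeR adjusted p = 0.0134), from 0.66 to 0.88 with single libraries left out, and the call was kept in all 12 of these fits.

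Mrpl52, another protein particular to mitochondria, had 9.77, 11 and 16.3 CPM in blood intact and 20.8, 20.4 and 25.2 CPM in blood resected. Again the groups did not overlap and blood intact 3 was the highest intact library. On the log2 scale the change was 0.84 ± 0.23 (SE, edgeR adjusted p = 0.0263). The call was lost without blood intact 1, blood intact 2 or blood resected 3, with log2 fold changes of 0.75 to 1.09 over the 12 fits.

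Mrpl16, a relative of the bacterial protein L16, which lies near the site of peptide bond formation, had 8.39, 8.81 and 9.9 CPM in blood intact and 12.7, 13.2 and 12.5 CPM in blood resected. The libraries within each group were close and the groups did not overlap. The log2 fold change was 0.50 ± 0.14 (SE, edgeR adjusted p = 0.034). It lay between 0.49 and 0.56 in the 12 fits with a library left out, but the adjusted p passed the threshold in only 3 of them, those without blood intact 3, spleen resected 1 or spleen resected 3.

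Mrps6, the relative of the bacterial small subunit protein S6, was the gene that fell. It had 8.01, 9.33 and 13.4 CPM in blood intact and 5.03, 5.3 and 2.59 CPM in blood resected. The groups did not overlap, and blood intact 3 was the highest and blood resected 3 the lowest library. Its log2 fold change was -1.25 ± 0.31 (SE, edgeR adjusted p = 0.02), from -1.41 to -0.95 with single libraries left out, and no call was lost.

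The annotation of Mrps6 limits this value. In GENCODE, Mrps6 shares 159 exonic bases, 10.4% of its own, with Slc5a3, the gene of a myo-inositol transporter on the same strand, and 19.9% with the predicted coding gene Gm49711. Slc5a3 had 19.9, 15.4 and 11.3 CPM in blood intact and 3.54, 3.77 and 2.11 CPM in blood resected, with no overlap. Its log2 fold change was -2.30 ± 0.29 (SE, edgeR adjusted p = 0.00124). How much of the decrease counted for Mrps6 came from reads in the shared bases was not tested.

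**Figure D2:**
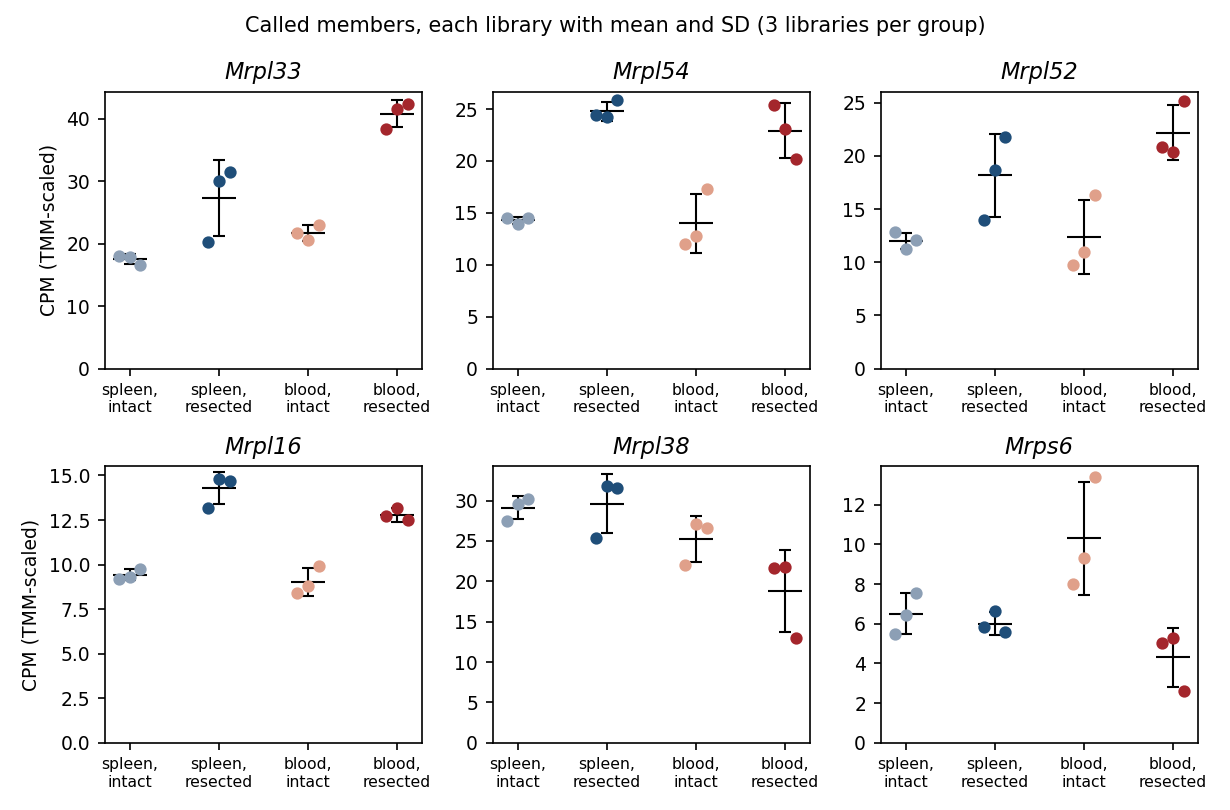
CPM, scaled by TMM factors, of the 6 genes called in at least 1 comparison, with 1 point per library, the mean (bar) and SD (whiskers) of the 3 libraries per group, on axes that start at 0. Mrpl33, Mrpl54, Mrpl52 and Mrpl16 are higher in both resected groups than in the matching intact group, and Mrps6 is lowest in blood resected.

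The promoters of the genes called after resection are shown because 3 sequence motifs, those of the ETS family, of nuclear respiratory factor 1 (NRF1) and of YY1, are known from promoters of nuclear genes for mitochondrial proteins. The 300-base windows cover each start site and come from RefSeq on build GRCm38.p6, whereas the counts were made on GRCm39. Of the 78 genes 69 had a window, 75 windows in all, and Mrpl54 had no entry. Capitals mark the ETS motif CCGGAAG on either strand, written as its reverse complement where it lies on the minus strand.
Mrpl33, chr5:31613701-31614000, plus strand: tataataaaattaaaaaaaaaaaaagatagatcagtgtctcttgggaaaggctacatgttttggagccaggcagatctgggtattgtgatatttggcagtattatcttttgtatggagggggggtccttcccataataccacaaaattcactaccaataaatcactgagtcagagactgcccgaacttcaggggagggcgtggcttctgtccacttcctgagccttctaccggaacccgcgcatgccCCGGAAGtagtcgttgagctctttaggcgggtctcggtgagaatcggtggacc
Mrpl52, chr14:54426659-54426958, plus strand: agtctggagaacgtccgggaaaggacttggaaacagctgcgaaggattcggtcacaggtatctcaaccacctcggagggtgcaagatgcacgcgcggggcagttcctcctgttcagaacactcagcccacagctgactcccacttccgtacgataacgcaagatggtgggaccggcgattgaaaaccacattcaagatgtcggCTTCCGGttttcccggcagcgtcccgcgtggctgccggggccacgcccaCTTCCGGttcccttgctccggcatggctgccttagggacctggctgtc
Mrpl16, chr19:11770165-11770464, plus strand: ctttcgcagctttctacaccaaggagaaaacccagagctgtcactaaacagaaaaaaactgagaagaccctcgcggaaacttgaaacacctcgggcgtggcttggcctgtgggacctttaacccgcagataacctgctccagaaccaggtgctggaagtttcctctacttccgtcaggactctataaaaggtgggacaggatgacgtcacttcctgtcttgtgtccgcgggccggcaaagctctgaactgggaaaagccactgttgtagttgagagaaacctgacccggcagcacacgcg
Mrps6, chr16:92058086-92058385, plus strand: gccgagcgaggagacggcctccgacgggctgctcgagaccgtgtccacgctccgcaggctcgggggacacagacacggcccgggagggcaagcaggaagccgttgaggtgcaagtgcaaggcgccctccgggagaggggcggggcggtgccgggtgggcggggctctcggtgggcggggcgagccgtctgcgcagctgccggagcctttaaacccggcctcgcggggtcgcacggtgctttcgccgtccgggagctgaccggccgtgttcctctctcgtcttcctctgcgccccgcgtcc
Mrpl33 held 1 ETS match and Mrpl52 held 2, both on the reverse strand. Mrpl16 and Mrps6 held 0 matches to the ETS, NRF1 and YY1 letters in these windows.

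Over all 69 genes with a window, the ETS letters CCGGAAG occurred in 37.7%, beside 17.7% of the 12326 tested genes with a window and 9.93% of all 27025 genes with a window. The NRF1 letters (GCGC, then A and any base, then GCGC) occurred in 18.8% of the 69 genes, 9.92% of tested genes and 5.19% of all genes. YY1 letters (AAGATGGC) occurred in 17.4%, 4.72% and 3.19%, respectively. The share was lower than among tested genes for the SP1 letters GGGCGG (49.3% beside 62%) and for TATAAA (7.25% beside 9.88%), and 39.1% beside 42.1% for CCAAT. Both strands were searched for each motif. Per window, ETS letters occurred in 34.7% of the 75 and in 8.86% of all windows, NRF1 letters in 17.3% and 4.6%, and YY1 letters in 16% and 2.75%. A match is a run of letters and not a measured binding site.

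Without blood intact 3 the account of the blood comparison was a different one. That library was set apart partly by these same genes, being the highest of all libraries for 46 of the 78. Leaving it out therefore lowers the intact mean of most of them by construction. The shift that follows shows the weight of this library and is no separate evidence of a rise. The median log2 fold change was then 0.34 for the large and 0.21 for the small subunit names, beside 0.00 for all features, and 66 of the 78 genes had a positive value where 37 had one with all libraries. The number called went from 5 to 14, with 13 higher and 1 lower, against 11.1% and 10.5% of the 21062 features tested in that fit. All 5 genes called with the full set were among the 14. The further 9 were Mrpl27, Mrpl17, Mrpl20, Mrpl11, Mrpl51 and Mrpl3 of the large and Mrps21, Mrps18c and Mrps14 of the small subunit.

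The value of Mrpl27, whose bacterial relative L27 reaches into the peptidyl transferase centre, shows the weight of this library. Mrpl27 had 11.1, 12.3 and 22.1 CPM in blood intact and 23.7, 23.1 and 20.4 CPM in blood resected. Only blood intact 3 reached the level of the resected libraries. The log2 fold change was 0.56 ± 0.24 with all libraries (SE, edgeR adjusted p = 0.127) and 0.93 ± 0.14 without blood intact 3 (SE, edgeR adjusted p = 0.0037).

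The matching comparison in splenic monocytes gave 1 called gene, Mrpl54, which rose, and 0 that fell. Among all features 1.02% were called higher and 1.03% lower, so that 1 of 78 was near the background. Small positive values prevailed. The median log2 fold change was 0.21 for the large and 0.15 for the small subunit names, beside 0.05 for all features, and it was positive for 42 of 49 large and 20 of 29 small subunit genes. In 17 genes every resected library was higher than every intact one, and in 1 gene every resected library was lower, against 17.4% and 17.7% of all features. Without adjustment 7 genes with p under 0.05 were higher and 0 lower, and DESeq2 called 5 higher and 0 lower.

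Mrpl54 had 14.5, 13.9 and 14.5 CPM in spleen intact and 24.4, 24.2 and 25.9 CPM in spleen resected. The spread within either group was small beside the distance between the groups, which did not overlap. On the log2 scale the change was 0.79 ± 0.16 (SE, edgeR adjusted p = 0.042). It ranged only from 0.77 to 0.81 with single libraries left out, but the call was lost in 10 of these 12 fits and kept without blood intact 3 or blood resected 3.

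Mrps18b, which with Mrps18a and Mrps18c is one of 3 mammalian relatives of the bacterial protein S18, had 13.5, 14.7 and 17.2 CPM in spleen intact and 24.2, 26.5 and 23.6 CPM in spleen resected. The groups did not overlap, and the log2 fold change of 0.71 ± 0.18 did not pass (SE, edgeR adjusted p = 0.0657). An antisense transcript shares 30.5% of its exonic bases, and whether the counting used strand was not given. Mrpl16 had 9.18, 9.31 and 9.77 CPM in spleen intact and 13.2, 14.8 and 14.7 CPM in spleen resected, also without overlap, and its log2 fold change of 0.60 ± 0.14 did not pass either (SE, edgeR adjusted p = 0.0626).

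Mrpl33 had 18, 17.9 and 16.5 CPM in spleen intact and 20.3, 30 and 31.5 CPM in spleen resected, with spleen resected 1 nearest to the intact libraries. Its log2 fold change was 0.64 ± 0.16 (SE, edgeR adjusted p = 0.069). Blood intact 3 belongs to neither spleen group, but leaving it out changed the shared estimate of the spread, the scaling and the number of features tested (21062 in place of 20135). In that fit 6 genes were called, all higher: Mrpl54, Mrpl16, Mrps18b, Mrpl57, Mrpl27 and Mrpl33. Of all features 5.09% were then called higher and 4.5% lower. The median of the large subunit genes was 0.36 without spleen resected 1, 0.13 without spleen resected 3 and 0.08 without spleen resected 2.

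**Figure D3:**
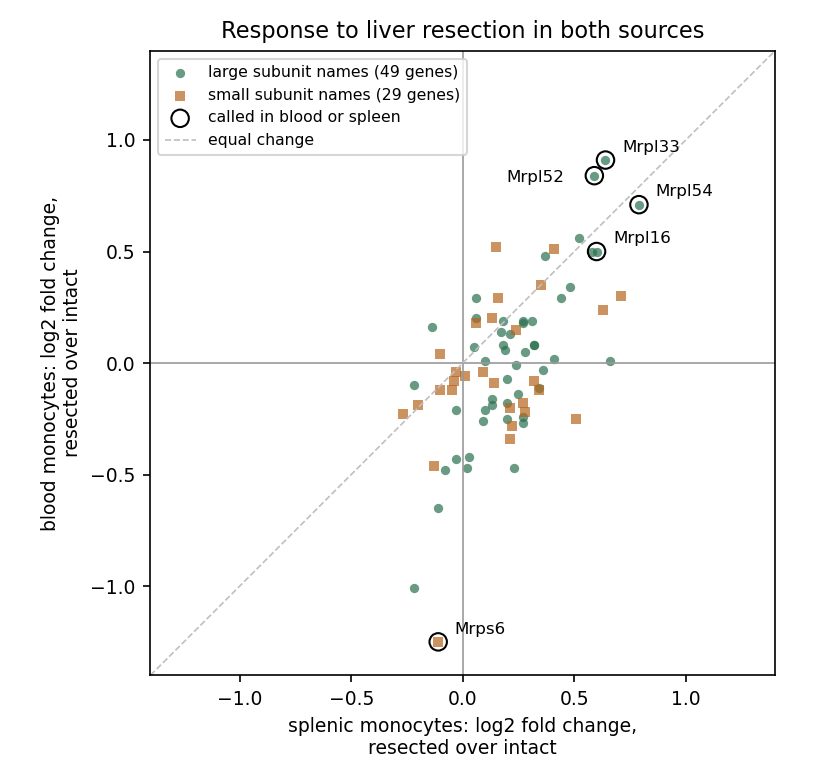
Log2 fold change after resection in splenic (horizontal) and blood monocytes (vertical), 1 point per gene, with the genes called in either source circled and the line of equal change dashed. The 4 circled large subunit genes lie at 0.50 or above in both sources, and Mrps6 lies at -1.25 in blood and -0.11 in spleen.

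The spleen and blood comparisons share no library, but whether their pools came from the same mice was not given. Over the 78 genes the log2 fold changes of the 2 sources were related with Pearson's r = 0.62 and Spearman's rho = 0.53, beside r = 0.27 and rho = 0.39 over all 20135 features. These were 0.66 and 0.63 without blood intact 3, beside 0.29 and 0.46. Genes are not independent replicates, and the points share the normalisation. The difference of the resection effect between blood and spleen was called for 0 of the 78 genes, against 0.219% of all features called higher and 0.0646% lower in blood. At an unadjusted p under 0.05 there was 1 gene, Mrps6, with a difference of -1.14 ± 0.44 (SE, edgeR adjusted p = 0.234), and DESeq2 called 0. In spleen Mrps6 had 5.49, 6.45 and 7.56 CPM in intact and 5.84, 6.64 and 5.56 CPM in resected animals, with overlapping groups. The median difference was -0.23 for the large and -0.09 for the small subunit names, beside -0.12 for all features. The direction turned without blood intact 3, with medians of 0.10 for both subunits beside -0.04 for all features, and again 0 genes were called (edgeR; 1 higher at an unadjusted p under 0.05).

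The genes next in order for this difference did not pass. For Mrpl50 it was -0.70 ± 0.32 (SE, edgeR adjusted p = 0.292) and for Mrpl57 -0.65 ± 0.33 (SE, edgeR adjusted p = 0.334). For Mrps34, a protein particular to the mitochondrial small subunit, it was -0.76 ± 0.36 (SE, edgeR adjusted p = 0.306). The differences were smaller without blood intact 3, -0.42 for Mrpl50, -0.35 for Mrpl57, -0.51 for Mrps34 and -0.90 for Mrps6. Mrps34 shares 37% of its exonic bases with Nme3 on the same strand and 63.4% with Mapk8ip3 on the other.

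The comparison of blood with spleen in intact animals gave 0 called genes of either subunit, against 4.51% of all features called higher in blood and 4.66% lower. At an unadjusted p under 0.05 there were 4 genes, all higher in blood, and DESeq2 called 3. The blood and spleen libraries did not overlap for 9 genes in the higher and 1 gene in the lower direction, against 13.6% and 20.9% of all features. The median log2 fold change was 0.07 for the large and 0.04 for the small subunit names, beside -0.02 for all features. When blood intact 3 was left out, these medians were -0.13 and -0.08, beside -0.03, and 0 genes were called (edgeR; at an unadjusted p under 0.05, 3 higher and 4 lower).

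The smallest unadjusted p of the large subunit names belonged to Mrpl46 and Mrpl27. Mrpl46 had 11.2, 10.4 and 11.2 CPM in spleen intact and 13.7, 12.9 and 17.8 CPM in blood intact, a log2 fold change of 0.44 ± 0.17 that did not pass (SE, edgeR adjusted p = 0.131). For Mrpl27 the log2 fold change was 0.60 ± 0.24 (SE, edgeR adjusted p = 0.153). Among the small subunit names they belonged to Mrps30, with 0.47 ± 0.18 (SE, edgeR adjusted p = 0.137), and Mrps6, with 0.66 ± 0.31 (SE, edgeR adjusted p = 0.217). With blood intact 3 left out, the log2 fold changes were 0.38 for Mrpl46, 0.33 for Mrpl27, 0.32 for Mrps30 and 0.52 for Mrps6, and none passed. Among the blood intact libraries, each of these genes was highest in library 3. Each was higher in all 3 blood intact libraries than in all 3 spleen intact libraries.

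After resection 1 gene was higher in blood than in spleen, Mrpl33, and 1 was lower, Mrpl38 (edgeR), against 8.54% and 10.6% of all features. The libraries did not overlap for 3 genes in the higher and 13 in the lower direction, against 17.2% and 25.1% of all features. Without adjustment 2 genes with p under 0.05 were higher and 8 lower, and DESeq2 called 3 higher and 2 lower. The median log2 fold change was -0.11 for the large and -0.03 for the small subunit names, beside -0.14 for all features. With haemoglobin genes removed before scaling, the median of all features moved from -0.14 to -0.02 here and from -0.02 to 0.10 in intact animals. The medians of the large and small subunit names were then -0.00 and 0.08 after resection, and 0.19 and 0.16 in intact animals, so that their distance from all features changed by less than the shift itself.

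Mrpl33 had 20.3, 30 and 31.5 CPM in spleen resected and 38.4, 41.6 and 42.4 CPM in blood resected. The groups did not overlap, and the log2 fold change was 0.58 ± 0.16 (SE, edgeR adjusted p = 0.0319). The call was lost without blood resected 2 or blood resected 3. In intact animals Mrpl33 was also higher in every blood library than in every spleen library, with a log2 fold change of 0.32 ± 0.16 that did not pass (SE, edgeR adjusted p = 0.255).

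Mrpl38, a protein particular to mitochondria in the large subunit, had 25.4, 31.8 and 31.6 CPM in spleen resected and 21.6, 21.8 and 13 CPM in blood resected. The groups did not overlap and blood resected 3 was far below the other libraries. The log2 fold change was -0.66 ± 0.20 (SE, edgeR adjusted p = 0.045). The call was lost whichever of the 12 libraries was left out, with values of -0.69 to -0.34, and blood resected 3 was also the blood resected library with the most neutrophil marker RNA (23610.2 CPM, against 4363 and 5384 CPM). Mrps35 had a log2 fold change of -0.72 ± 0.23 (SE, edgeR adjusted p = 0.0505) and Mrps18b one of -0.41 ± 0.18 (SE, edgeR adjusted p = 0.134). Without blood intact 3, 6 genes were called, 2 higher and 4 lower in blood, in a fit in which 14% of all features were called higher and 14.4% lower. In that fit the median of all features in this comparison was -0.04 in place of -0.14.

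Some of the genes have a known part in disease or in the catalytic and decoding sites. Mrpl3, Mrpl12, Mrpl44, Mrps16, Mrps22 and Mrps34 have human counterparts in which inherited defects impair mitochondrial translation. With all libraries no adjusted p of these 6 genes passed in either resection comparison (edgeR), and their unadjusted p were 0.0725 or above. Mrpl3 was called higher in blood without blood intact 3, at 0.46 (edgeR adjusted p = 0.0378) in place of 0.01, and the other 5 were not called. With all libraries their log2 fold changes in blood ran from -0.26 ± 0.26 (SE) for Mrpl44 to 0.04 ± 0.20 (SE) for Mrps16, and in spleen from -0.10 ± 0.20 (SE) for Mrps16 to 0.51 ± 0.25 (SE) for Mrps34. Mrpl12, which also binds the mitochondrial RNA polymerase, had 16.8, 18.5 and 38.4 CPM in blood intact and 24.1, 22.4 and 16.2 CPM in blood resected, with blood intact 3 as the highest library of all. Its log2 fold change was -0.24 ± 0.32 with all libraries (SE, edgeR adjusted p = 0.643) and 0.24 without blood intact 3 (edgeR adjusted p = 0.525).

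Mrps12, the relative of the bacterial protein S12 at the decoding centre, had log2 fold changes of -0.19 ± 0.30 (SE) in blood and -0.20 ± 0.30 (SE) in spleen. Mrpl58, a peptidyl-tRNA hydrolase that became a ribosomal subunit, had -0.47 ± 0.29 (SE) and 0.02 ± 0.29 (SE). No adjusted p of either gene passed. The values in blood were 0.23 for Mrps12 and 0.00 for Mrpl58 without blood intact 3. Of the relatives of S18, Mrps18c had log2 fold changes of 0.51 ± 0.21 (SE, edgeR adjusted p = 0.108) in blood and 0.41 ± 0.21 (SE) in spleen, Mrps18b 0.30 ± 0.18 (SE) and 0.71 ± 0.18 (SE), and Mrps18a, which takes a place in the large subunit, 0.29 ± 0.20 (SE) and 0.16 ± 0.20 (SE). All 6 values were positive and none passed in edgeR with all libraries. In the fit without blood intact 3, edgeR called Mrps18c in blood (0.71, adjusted p = 0.0267) and Mrps18b in spleen (0.71, adjusted p = 0.0238). DESeq2 called the same pair with all libraries, Mrps18c in blood (adjusted p = 0.035) and Mrps18b in spleen (adjusted p = 0.000442). Mrps18c shares 23.2% of its exonic bases with Gm43511 on the same strand. Mrps30, the other large subunit protein with a small subunit name, had -0.18 ± 0.18 (SE) in blood, or 0.07 without blood intact 3, and 0.27 ± 0.18 (SE) in spleen. When genes were sorted by position in the ribosome instead of by name, the median over all libraries in blood was 0.02 for the large and -0.09 for the small subunit, and in spleen 0.21 and 0.14.

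Shorter transcripts tended to have the more positive values after resection, within these genes and outside them. Over the 78 genes the Spearman correlation of transcript length with log2 fold change was -0.37 in blood and -0.28 in spleen, beside -0.17 and -0.18 over the 13211 features with a length. In blood the 26 shortest genes (418 to 941 bases) had a median log2 fold change of 0.19, the middle 26 (970 to 1764 bases) one of -0.11 and the longest 26 (1849 to 7300 bases) one of -0.05. The 698 other features of at most 941 bases had a median of 0.27, and the 9856 other features of at least 1849 bases one of -0.17. In spleen the 3 parts had medians of 0.22, 0.20 and 0.17, beside 0.27 and -0.00 for the other short and long features.

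The called genes Mrpl52, Mrpl33 and Mrpl54 are among the shortest of all, with 418, 478 and 604 bases. The tendency did not rest on blood intact 3, without which the Spearman correlation in blood was -0.40 and the medians of the 3 parts were 0.44, 0.22 and 0.17. The part of transcript length or RNA integrity in the calls was not tested.

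**Figure D4:**
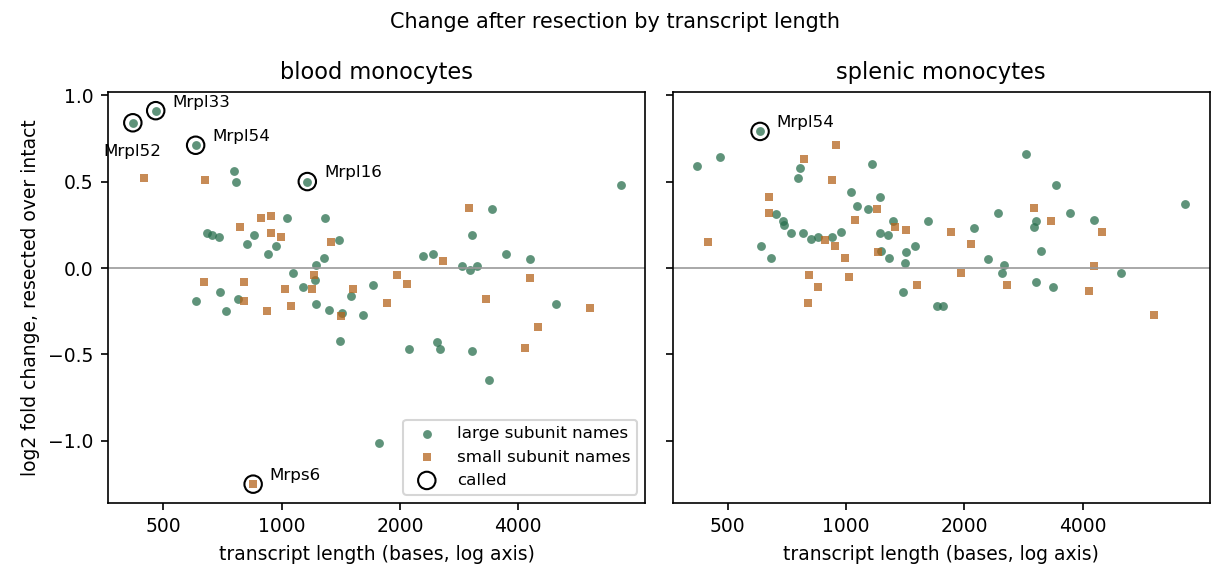
Log2 fold change after resection against transcript length (log axis) for the 78 genes, in blood (left) and splenic monocytes (right), with called genes circled. In blood Mrpl52, Mrpl33 and Mrpl54, at 418 to 604 bases, carry the 3 highest values, and in spleen the medians of short, middle and long genes are 0.22, 0.20 and 0.17.

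The mitoribosome also has subunits that carry other names, and 5 of these (Dap3, Chchd1, Aurkaip1, Ptcd3 and Gadd45gip1) gave 0 calls after resection in blood and in spleen (edgeR). At an unadjusted p under 0.05 there was 1, Ptcd3 in blood, and DESeq2 called 1 in blood and 0 in spleen. Their median log2 fold change in blood was -0.34, with -0.34 ± 0.24 (SE) for Dap3, a GTP-binding protein of the small subunit, and -0.84 ± 0.28 (SE, edgeR adjusted p = 0.0559) for Ptcd3. The negative median was lost without blood intact 3: it was 0.03, with 3 of the 5 genes positive, 0.03 for Dap3 and -0.49 for Ptcd3. In spleen the median was 0.19 with and without that library.

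The genes that make and drive the ribosome were on the negative side in blood, where the ribosomal proteins were near 0. Of 14 translation factors 2 fell and 0 rose, with a median of -0.31. Of 17 mitochondrial aminoacyl-tRNA synthetases 5 fell and 0 rose, with a median of -0.51. Of 26 assembly factors 3 fell and 1 rose, with a median of -0.28, and of 17 genes of mitochondrial transcription, RNA handling and DNA replication 6 fell and 0 rose, with a median of -0.37. These medians stand beside -0.10 for all features, of which 10.3% were called lower. In spleen 0 genes of these 4 lists were called, beside 1.02% of all features higher and 1.03% lower. The medians of the lists were -0.11, -0.10, -0.01 and -0.03. At an unadjusted p under 0.05, 4 of the listed genes were higher and 8 lower in spleen, and DESeq2 called 2 higher and 7 lower. Without blood intact 3 edgeR called 2 of them higher and 2 lower, beside 5.09% and 4.5% of all features.

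Of the genes that fell in blood, 4 genes of these lists kept the call whichever of the 12 libraries was left out. Ears2, the glutamyl-tRNA synthetase of mitochondria, had 11.7 to 17.6 CPM in blood intact and 5.29 to 7.48 CPM in blood resected, a log2 fold change of -1.17 ± 0.25 (SE, edgeR adjusted p = 0.0108). Polrmt, the mitochondrial RNA polymerase, had 21.9 to 36.1 CPM and 9.01 to 15.6 CPM, a log2 fold change of -1.13 ± 0.25 (SE, edgeR adjusted p = 0.0115). Twnk, the helicase of mitochondrial DNA replication, had 17.5 to 28.3 CPM and 8.89 to 13.9 CPM, a log2 fold change of -0.96 ± 0.21 (SE, edgeR adjusted p = 0.0119). Polg2, the accessory subunit of the mitochondrial DNA polymerase, had 9.83 to 12.9 CPM and 4.36 to 6.44 CPM, a log2 fold change of -1.04 ± 0.21 (SE, edgeR adjusted p = 0.00798). The groups did not overlap for any of the 4 genes, and 2 of them act in DNA replication rather than in transcription or RNA handling.

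Without blood intact 3 the counts of genes that fell in blood were 2 of 14 translation factors, 3 of 17 synthetases, 2 of 26 assembly factors and 3 of 17 transcription and RNA handling genes, and 0, 0, 2 and 1 rose. In that fit 10.5% of all features were called lower and 11.1% higher. The medians of the 4 lists were -0.07, -0.13, -0.12 and -0.31, beside 0.00 for all features, while those of the ribosomal proteins were 0.34 and 0.21. With and without this library, the medians of the ribosomal proteins of both subunits were above those of the 4 lists. No test of the difference between the lists was made, and the part of transcript length in it was not tested.

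A list of 12 genes held regulators of mitochondrial biogenesis and the mitochondrial proteases Clpp and Lonp1. Of these 12 genes 2 fell and 1 rose in blood, against 10.3% of all features called lower and 10.8% higher, with a median of -0.48. With blood intact 3 left out the median was -0.28, and 2 were called lower and 0 higher, beside 10.5% and 11.1% of all features. In spleen 0 were called, with a median of -0.05 (edgeR; 1 lower at an unadjusted p under 0.05, and 0 by DESeq2). Ppargc1b, a coactivator of nuclear receptors that promotes mitochondrial biogenesis, had 19.6 to 25.5 CPM in blood intact and 5.29 to 7.27 CPM in blood resected, a log2 fold change of -1.79 ± 0.23 (SE, edgeR adjusted p = 0.00131). Gabpb2, a partner of the ETS factor Gabpa, had 165 to 229 CPM and 77.3 to 99.1 CPM, a log2 fold change of -1.14 ± 0.16 (SE, edgeR adjusted p = 0.00196). Esrra, the nuclear receptor ERR alpha, had 14.8 to 22.1 CPM and 26.1 to 37.2 CPM, a log2 fold change of 0.72 ± 0.19 (SE, edgeR adjusted p = 0.0246) whose adjusted p was 0.0519 without blood intact 3. Gabpa, Nrf1 and Yy1, the genes of the factors whose motifs were counted above, had log2 fold changes of -0.51 ± 0.18, -0.81 ± 0.27 and -0.46 ± 0.15 (SE), none of which passed. Leaving out blood intact 3 gave -0.39, -0.44 and -0.29.

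The nuclear genes of oxidative phosphorylation had higher medians than the ribosomal proteins. Of 81 tested, 9 rose and 0 fell in blood, a share near the 10.8% of all features called higher, and their median in blood was 0.37 on the log2 scale. In spleen 1 rose and 0 fell, near the 1.02% of all features, with a median of 0.41. Without blood intact 3 the genes called higher were 51 of 81 in blood, with a median of 0.68, and 15 of 81 in spleen, beside 11.1% and 5.09% of all features. No test of the difference from the ribosomal proteins was made, and the part of transcript length in it was not tested. The 82 tested genes of cytosolic ribosomal proteins gave 0 calls in both sources (edgeR; at an unadjusted p under 0.05, 0 in blood and 4 higher in spleen; DESeq2 called 1 in blood and 4 in spleen), with medians of 0.02 in blood and 0.21 in spleen, close to those of the mitochondrial large subunit names in the same comparisons. The median of the cytosolic ribosomal proteins in blood was 0.05 without blood intact 3, with 1 called, beside 0.34 for the mitochondrial large subunit names.

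Marker genes of other cells differed with resection beside these values. In blood all 12 neutrophil markers were called higher (median log2 fold change 4.54) and 5 of 11 T- and NK-cell markers lower (median -2.20). In spleen 2 of 12 neutrophil markers were called higher (median 2.45; 11 at an unadjusted p under 0.05 and 11 by DESeq2) and 0 of 11 T- and NK-cell markers were called (edgeR; 10 were lower at an unadjusted p under 0.05, and DESeq2 called 8), with a median of -1.90. Leaving out blood intact 3, edgeR called 10 neutrophil markers higher and 8 T- and NK-cell markers lower in blood, and 5 and 9 in spleen. The 14 proliferation markers had a median of -1.54 in blood and 1.70 in spleen, with 0 called (edgeR; at an unadjusted p under 0.05, 1 lower in blood and 1 higher in spleen), and DESeq2 called 1 lower in blood. The negative value in blood rested on blood intact 3: their sums were 309, 276 and 2763 CPM in blood intact and 490.1, 515 and 534 CPM in blood resected. Without that library the median in blood was 1.05, with 14 of 14 positive and 1 called, and in spleen 7 were called higher with the median still 1.70. Of the 10 monocyte markers 2 were called higher and 1 lower in blood and 0 in spleen, where DESeq2 called 2 higher and 2 lower. Without blood intact 3, edgeR also called Ly6c2 lower in blood (-1.04, edgeR adjusted p = 0.0114). In spleen that fit called Csf1r and Cd68 higher, and Ccr2, Cx3cr1 and Ace lower. The 9 erythroid and the 9 B-cell markers gave 0 calls in both comparisons (edgeR), with medians of 0.59 and -0.57 in blood and of 3.23 and -0.82 in spleen. At an unadjusted p under 0.05 these were 0 erythroid and 2 B-cell markers in blood and 9 and 2 in spleen, and DESeq2 called 0 and 1 in blood and 9 and 1 in spleen. The erythroid and B-cell medians in blood were 0.23 and -0.99 without blood intact 3, with 0 and 2 called lower, and 6 erythroid markers were called higher in spleen. The part of these cell types in the values of the mitochondrial ribosomal protein genes was not tested.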

How the data were processed

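CD115+ monocytes were sequenced by strand-specific mRNA libraries, 12 in all, in 4 groups of 3. The authors aligned the reads with STAR (version not given) to build GRCm39, per the submitters' processing notes, and deposited tables of estimated counts per entry, which need not be whole. The counting tool, its strand setting and the handling of reads shared between genes were not given in the sources used here. Each table had 67088 entries. Of these 2558 without a gene assignment (1.75% to 4.33% of counts) were left out, and 25340 of 40274 accession entries were matched to a symbol and summed with it, 17 of them belonging to 12 of the genes studied. Sums were rounded.

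The edgeR quasi-likelihood test (version 4.0.16, R 4.3.3) was fitted to all 12 libraries with TMM scaling and filterByExpr, and p-values were adjusted by Benjamini-Hochberg over 20135 features. An adjusted p under 0.05 was called, with no limit on the fold change. The SE given is the absolute log2 fold change divided by the square root of the F statistic of this test. It was derived from the test and not estimated apart from it. The common dispersion was 0.312 and TMM factors were 1.14 to 1.26 in spleen and 0.661 to 1.09 in blood. CPM values used these factors. DESeq2 (1.42.0), another scaling, other filters and leaving out each library were the alternatives. The fit was also run on simulated data. Those data had a much smaller dispersion than the common dispersion, and changes larger than those of most of these genes. That run does not show how the fit performs on smaller changes or a larger spread. Transcript lengths and shared exonic bases came from GENCODE M21, promoters from RefSeq (GRCm38.p6). Genes named were those called in each comparison and subunit (at most 3 in each direction; with none called, the 2 with the smallest p, said not to pass), the 2 per subunit with the smallest p for the difference between sources, the highest and lowest level per length, and 12 genes of known role. Mrpl17, Mrpl20, Mrpl11, Mrpl51 and Mrps14 were named after their values were seen. The genes and lists were chosen with earlier results of these data known.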

Additional observations from a re-analysis of the deposited data

How the results depend on the processing

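With each library left out in turn, the genes called ranged from 3 to 14 for resection in blood, from 0 to 6 for resection in spleen, from 0 to 6 for blood against spleen after resection, and were 0 throughout for blood against spleen in intact animals and for the difference between the sources. The highest counts of 14, 6 and 6 came without blood intact 3. DESeq2 called 11, 5, 3 and 5 genes in the first 4 comparisons (blood, spleen, intact, resected), and an unadjusted p under 0.05 gave 10, 7, 4 and 10, and 1 for the difference between the sources. Requiring an absolute log2 fold change above 1 as well left 1, 0 and 0 genes for resection in blood, resection in spleen and blood against spleen after resection. Fitting only the groups compared gave 1 for resection in blood and 1 for blood against spleen after resection. A filter of 10 counts in every library gave 4 for resection in spleen. No low-count filter gave 0 for resection in spleen and 1 for blood against spleen after resection, and leaving out haemoglobin genes gave 1 for the latter. Correlations of same-numbered libraries ran from -0.046 to 0.189. The highest, 0.131 and 0.189, were between spleen resected and blood resected, for numbers 2 and 3. Differently numbered libraries were not compared, so these values cannot decide whether the numbers pair the samples. A fit with the replicate number as a block gave 4, 0, 0 and 1 genes, and 0 for the difference between the sources.

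The median of the large subunit names after resection in spleen ran from 0.08 to 0.36 over the libraries left out, that in blood from -0.08 to 0.34, and that of blood against spleen after resection from -0.11 to 0.12, above 0 without blood resected 3 or spleen resected 2. The small subunit names ran from -0.18 to 0.21 in blood and from 0.03 to 0.24 in spleen. Among 42 results for named genes, 920 alternatives gave 824 of the same direction and side of the threshold, 58 that lost and 20 that gained a call, and 18 of the opposite sign. The sign changed with a library left out in blood for Mrpl12 from -0.39 to 0.24, Mrpl3 from -0.13 to 0.46, Mrpl44 from -0.37 to 0.07, Mrpl58 from -0.61 to 0.0042, Mrps12 from -0.31 to 0.23, Mrps16 from -0.06 to 0.25, Mrps22 from -0.27 to 0.29 and Mrps30 from -0.25 to 0.07, and in spleen for Mrpl44 from -0.09 to 0.24, Mrpl58 from -0.05 to 0.10 and Mrps16 from -0.23 to 0.01. Mrpl58 in spleen was -0.00056 without a low-count filter. The cause of these changes was not tested. With 3 pools of mice per group, most of the differences seen in these genes did not pass the test, and a gene that was not called is not shown to be unchanged.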
